A study of Danio rerio with 4 samples.

Results

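Genes of the blood vessel lining and of its response to flow were examined in whole zebrafish embryos with and without functional nexn. The 10 genes were chosen by name: the vascular endothelial growth factor (VEGF) receptors kdrl, flt1 and flt4, the Tie receptors tie1 and tek, the junction gene cdh5, the transcription factor fli1a, the secreted factor egfl7, and the flow-responsive transcription factors klf2a and klf2b. All 10 were found among the 32057 genes of the deposited tables and all 10 passed the low-count filter. Whole-embryo RNA at 72 hours post fertilization (hpf) was sequenced from 2 nexn+/+ and 2 nexn-/- libraries, each a pool of 25 embryos. The nexn-/- line carries a CRISPR/Cas9 deletion in exon 2 that introduces a premature stop codon, and nexn+/+ embryos carry the intact gene. By the study's methods, nexn+/+ adults and nexn-/- adults, siblings from 1 heterozygous cross that were housed apart, were each bred among themselves to give the embryos. Genotype and parents therefore cannot be told apart.

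nexn encodes Nexilin, an actin-binding protein of the muscle Z-disc that is linked to heart function. Endothelial cells line all blood vessels, and their growth and survival depend on VEGF ligands that signal through the kinase receptors encoded by kdrl, flt1 and flt4. Angiopoietins act on the same cells through tek, the zebrafish Tie2 receptor, while tie1 encodes a related receptor that modulates this signal. Blood flow exerts shear stress on the vessel and heart lining, and klf2a is widely used in zebrafish as a readout of that stress.

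The targeted gene was examined first. nexn (ENSDARG00000057317) had estimated counts of 1699.91 and 1495.75 in nexn+/+ replicates 1 and 2 and of 895.43 and 1165 in nexn-/- replicates 1 and 2, so both nexn-/- libraries lay below both controls. Its transcript fell to a log2 fold change, log2(FC), of -0.91 (SE 0.168, adjusted p = 0.00737). With an offset for effective length the log2(FC) was -0.74. The paper described nexn transcript levels at the same stage as unaltered, by quantitative PCR and also by its RNA sequencing. For the sequencing, however, it printed a log2(FC) close to -0.91, with an adjusted p from DESeq2 under 0.05. The libraries held between 19413597 and 21956272 estimated counts. The nexn+/+ replicates differed more from each other than the nexn-/- replicates did (chi-square per degree of freedom over genes, 54.1 against 5.81).

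Most of the vessel genes were more abundant in nexn-/- embryos. Calls required an adjusted p under 0.05 and a log2(FC), nexn-/- against nexn+/+, beyond 0.5. They came from the quasi-likelihood test of edgeR, with p-values adjusted by Benjamini-Hochberg over all 20312 genes tested. Of the 10 genes, kdrl, flt4, tie1, fli1a, egfl7, klf2a and klf2b were called higher (7 of 10, against 16.7% of all genes tested), and tek was called lower (1 of 10, against 13.9%). Together 8 of 10 were called, against 30.6% of all genes tested in either direction, and cdh5 and flt1 were not. With no limit on the fold change cdh5 joined them (9 of 10, against 35.1%), and with DESeq2 6 were called higher (against 13.2%) and 0 lower (against 12.6%). In 8 genes both nexn-/- libraries lay above both nexn+/+ libraries (36.4% of all genes tested did so), in tek both lay below (34.4%), and in flt1 the groups overlapped. The median log2(FC) of the 10 genes was 0.92, against 0.02 over all genes tested. Without either nexn-/- library none of the 10 genes was called (0 higher and 0 lower), when 4 genes of the whole table were called higher and 0 lower. The log2(FC) of all 10 genes kept its sign in both of these fits, each with 1 nexn-/- library left. That outcome was largely fixed in advance. The groups were separate in all genes but flt1, and both flt1 values of nexn-/- lay above its nexn+/+ mean. The median log2(FC) of the 10 genes lay between 0.85 and 1.00 as each of the 4 libraries was left out. In RNA of whole embryos, a change in the number of endothelial cells and a change in RNA per cell cannot be told apart.

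**Figure D1:**
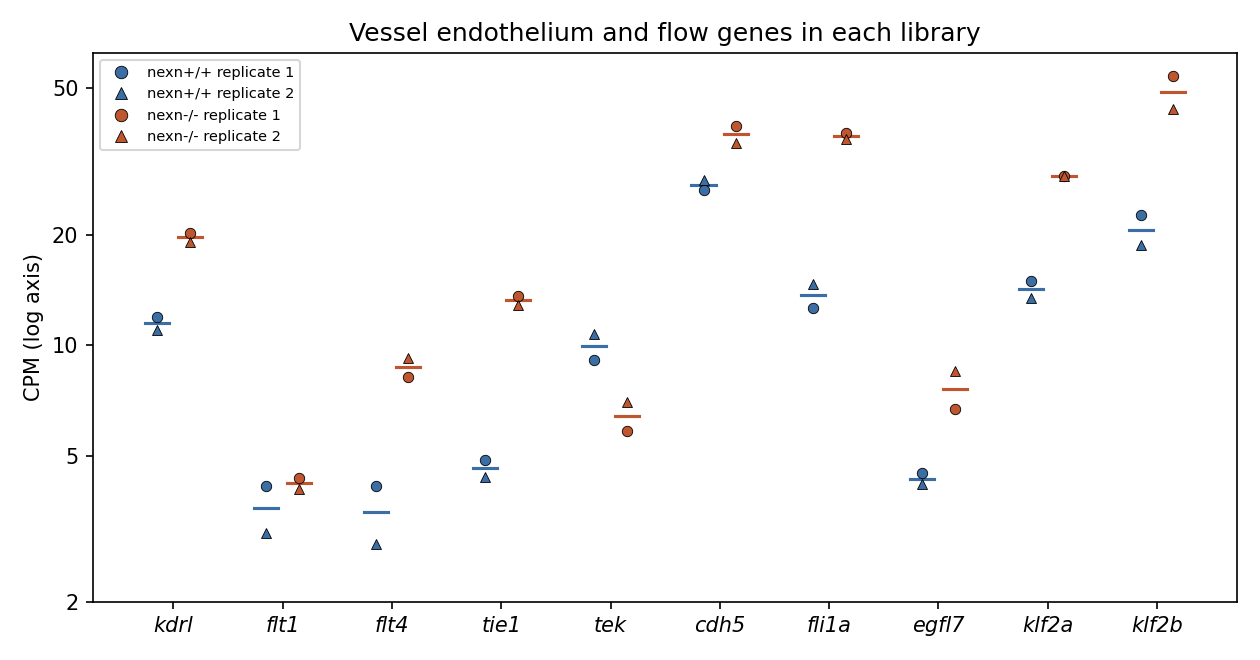
Normalised read counts (CPM, counts scaled to library size with TMM factors) of the 10 vessel and flow genes for each library of nexn+/+ and nexn-/- embryos. The vertical axis is logarithmic, points are single libraries (circles replicate 1, triangles replicate 2) and short lines are group means. The nexn-/- points lie above the nexn+/+ points in 8 genes, below them in tek and overlap them in flt1.

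Among the VEGF receptors, kdrl and flt4 rose and flt1 was not called. kdrl (ENSDARG00000105215) encodes the main VEGF receptor of zebrafish vessel endothelium, and flt4 (ENSDARG00000104453) encodes the VEGF-C receptor of veins, lymphatics and vessel sprouts. kdrl was measured at 11.95 and 10.99 CPM in nexn+/+ replicates 1 and 2 and at 20.2 and 19.1 CPM in nexn-/- replicates 1 and 2. Here and in the following, library values are given in this order, as normalised read counts in CPM, which are scaled to library size. The nexn-/- libraries were both above the controls, by 1.72-fold (log2(FC) 0.78, SE 0.135, 95% interval 0.46 to 1.1, adjusted p = 0.00598).

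flt4 was measured at 4.14, 2.87, 8.21 and 9.23 CPM. Its groups were likewise separate, and the difference was 2.50-fold (log2(FC) 1.32, SE 0.245, 95% interval 0.74 to 1.90, adjusted p = 0.00769). flt1 (ENSDARG00000019371), which encodes a receptor that binds VEGF-A and restrains signalling through kdrl, was measured at 4.14, 3.07, 4.35 and 4.07 CPM. The lower nexn-/- library lay below the higher nexn+/+ library, and the log2(FC) was 0.23 (SE 0.257, adjusted p = 0.529). The 95% interval of the flt1 difference, -0.38 to 0.84, leaves room for a change of the size seen in kdrl, so these 61 to 97 counts per library do not show that flt1 was constant. Whether the change in flt1 differed from those in kdrl and flt4 was not tested. As a description, the ratio of kdrl to flt1 in TPM, an abundance scaled to transcript length and library total, was 1.40 and 1.77 in nexn+/+ and 2.36 and 2.39 in nexn-/- libraries.

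The ligands of these receptors were not called. Of 13 tested genes on a list of VEGF ligands and co-receptors, 2 were called higher (15.4%, near the 16.7% of all genes tested), 0 lower and 11 were not called. The median log2(FC) of the list was 0.45, against 0.02 over all genes tested, and 0.26 when nexn+/+ replicate 2 was left out. Relative to genes of similar mean CPM, the median of the list was 0.16. vegfaa, the main vessel-directing ligand, was measured at 8.72, 10.1, 10.9 and 9.40 CPM (log2(FC) 0.11), and its duplicate vegfab had a log2(FC) of -0.09. vegfc, the ligand of flt4, had a log2(FC) of 0.45, and kdr, a related VEGF-A receptor gene, had one of 1.26 at an adjusted p of 0.0672. These ligands and kdr were named after their values were seen. The genes called were adamts3 (log2(FC) 1.29, adjusted p = 0.0267) and adamts14 (log2(FC) 0.83, adjusted p = 0.0415), proteases that process VEGF-C. The call of adamts14 was lost with DESeq2 (adjusted p = 0.1006).

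The Tie receptors moved in opposite directions. tie1 (ENSDARG00000004105) was measured at 4.87, 4.38, 13.6 and 12.9 CPM, and tek (ENSDARG00000028663) at 9.12, 10.7, 5.83 and 6.998 CPM. In nexn+/+ libraries tek had the higher normalised read count of the pair, and in nexn-/- libraries tie1 did. tie1 rose 2.87-fold (log2(FC) 1.52, SE 0.177, 95% interval 1.1 to 1.94, adjusted p = 0.00179). tek fell by 0.63 on the log2 scale (SE 0.197, 95% interval -1.1 to -0.16, adjusted p = 0.0465).

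The call of tek lies close to the limit. It was lost with DESeq2 (adjusted p = 0.0856), with scaling by library size alone (0.158), by the upper quartile (0.0824) or by rpl13 (0.26), and with offsets for effective length (0.054), with log2(FC) from -0.64 to -0.41 in these fits. The level of tie1 relative to tek, as a ratio of TPM values within each library, was 0.276 and 0.222 in nexn+/+ and 1.27 and 1.07 in nexn-/- libraries. This ratio does not depend on the scaling between libraries, and its group means differed 4.70-fold. The pair was picked after the values were seen, so the ratio is a description.

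Beside the receptors, 4 of 9 tested genes of an angiopoietin and Tie pathway list were called higher (44.4%, against 16.7% of all genes tested). In this list 0 were called lower (against 13.9%), with a median log2(FC) of 0.97. angpt1, the activating ligand of the Tie2 receptor, was measured at 0.74, 1.31, 3.50 and 4.59 CPM. Both nexn-/- libraries were above both controls (log2(FC) 1.96, adjusted p = 0.00803). svep1, which encodes an extracellular matrix protein known to bind the Tie1 receptor, had a log2(FC) of 0.81 (adjusted p = 0.0141). angpt2b had one of 1.52 (adjusted p = 0.0374), from 8 to 38 counts per library, and its call was lost with DESeq2 (adjusted p = 0.1137) and without nexn+/+ replicate 2 (adjusted p = 0.072). foxo1b, a transcription factor gene of the Foxo family named after its values were seen, was also called. It had 6 and 2 counts in nexn+/+ and 23 and 34 in nexn-/- libraries.

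**Figure D2:**
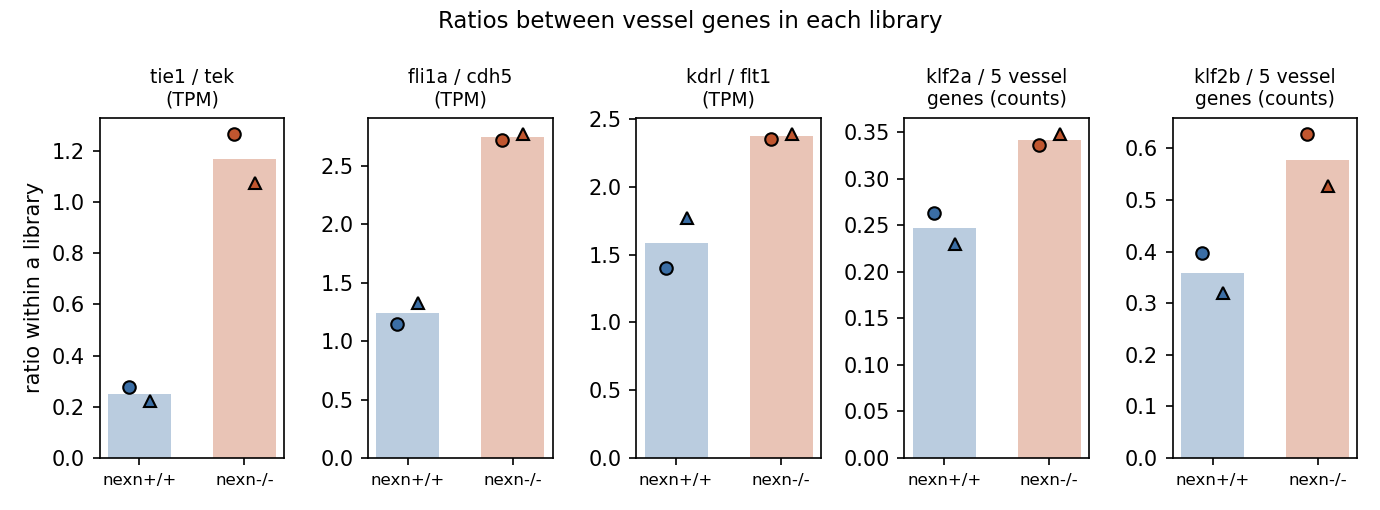
Ratios between genes within each library, in TPM for 3 gene pairs and in counts for klf2a and klf2b over 5 summed vessel genes. Points are libraries (circles replicate 1, triangles replicate 2) and bars are group means. The tie1 to tek ratio is 0.276 and 0.222 for nexn+/+ libraries, 1.27 and 1.07 for nexn-/- libraries, and klf2a and klf2b relative to the summed vessel genes are higher in both nexn-/- libraries.

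The junction gene cdh5 and the secreted factor egfl7 were both higher in the nexn-/- libraries, with egfl7 called and cdh5 short of the fold limit. cdh5 (ENSDARG00000075549) encodes VE-cadherin, the adhesion protein of endothelial junctions, and had the second highest mean CPM of the 10 genes. It was measured at 26.4, 28.2, 39.4 and 35.6 CPM, with separate groups. The difference passed the adjusted p but not the fold limit (1.37-fold, log2(FC) 0.46, SE 0.112, 95% interval 0.19 to 0.72, adjusted p = 0.0206). With scaling by library size alone, the upper quartile or rpl13, cdh5 was called, at log2(FC) of 0.60, 0.56 and 0.69. With DESeq2 cdh5 also missed the limit on the adjusted p (log2(FC) 0.44, adjusted p = 0.0612). egfl7 (ENSDARG00000100657), a secreted factor made by endothelial cells that guides vessel tube formation, was measured at 4.48, 4.18, 6.69 and 8.53 CPM. The nexn-/- libraries were both higher but apart from each other (log2(FC) 0.81, SE 0.222, 95% interval 0.28 to 1.34, adjusted p = 0.0296). With DESeq2 egfl7 missed the limit (adjusted p = 0.0549).

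Of 25 tested endothelial junction and surface genes, 12 were called higher (48.0%, against 16.7% of all genes tested). Of the same list 1 was called lower (4.0%, against 13.9%) and 12 were not called, with a median log2(FC) of 0.86. The largest rise was that of she, an adaptor protein gene expressed in endothelium, measured at 0.793, 0.655, 4.85 and 4.77 CPM (log2(FC) 2.73, adjusted p = 0.00163). The gene called lower was s1pr1, a sphingosine-1-phosphate receptor of endothelium that cells of the nervous system also express. s1pr1 had 165, 158, 104 and 104 CPM (log2(FC) -0.64, adjusted p = 0.00517), and its call was lost with scaling by library size alone or rpl13. heg1, which encodes a junction receptor needed for heart and vessel integrity, had a log2(FC) of 1.01 (adjusted p = 0.0142).

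fli1a (ENSDARG00000054632), an ETS transcription factor that marks endothelium from its early stages, rose as well. It was measured at 12.6, 14.7, 37.7 and 36.4 CPM, and the lowest nexn-/- value was well above the highest nexn+/+ value. The difference was 2.71-fold (log2(FC) 1.44, SE 0.125, 95% interval 1.14 to 1.74, adjusted p = 0.00119). In TPM, fli1a relative to cdh5 was 1.15 and 1.33 in nexn+/+ and 2.72 and 2.78 in nexn-/- libraries. The ratio was higher in both nexn-/- libraries, and this pair was also picked after the values were seen.

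fli1a is also expressed in cranial neural crest and its cartilage. Of 10 markers of cranial neural crest and cartilage, 8 were called higher (80.0%, against 16.7% of all genes) and 0 lower (against 13.9%). The median log2(FC) of these markers was 1.30. Their summed level in CPM was 2488 and 1557 for nexn+/+ libraries, 3712 and 3756 for nexn-/- libraries, with no marker at 0. The most abundant marker alone averaged 2416 CPM over all libraries, so it gave most of this sum. The largest rise was that of acana, a cartilage matrix gene (log2(FC) 3.09, adjusted p = 0.000486). The part of these cells in the fli1a difference was not tested.

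Of 18 other transcription factors of endothelium tested, 4 were called higher (22.2%, against 16.7% of all genes), 3 lower (16.7%, against 13.9%) and 11 were not called. These shares lay near those of the whole table. The median log2(FC) of the list was 0.18, and 0.04 when nexn+/+ replicate 2 was left out. The largest rise was that of ets1, an ETS factor, measured at 0.397, 1.01, 2.65 and 2.54 CPM (log2(FC) 1.85, adjusted p = 0.0202), with a log2(FC) of 1.36 when nexn+/+ replicate 1 was left out and of 2.68 when nexn+/+ replicate 2 was. The largest fall was that of tal1, a blood and endothelial factor that is also present in neurons, measured at 75.7, 69.1, 32.4 and 33.2 CPM (log2(FC) -1.14, adjusted p = 0.00128). fli1b, the duplicate of fli1a, had a log2(FC) of 0.19 (adjusted p = 0.534) and was named after its value was seen.

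**Figure D3:**
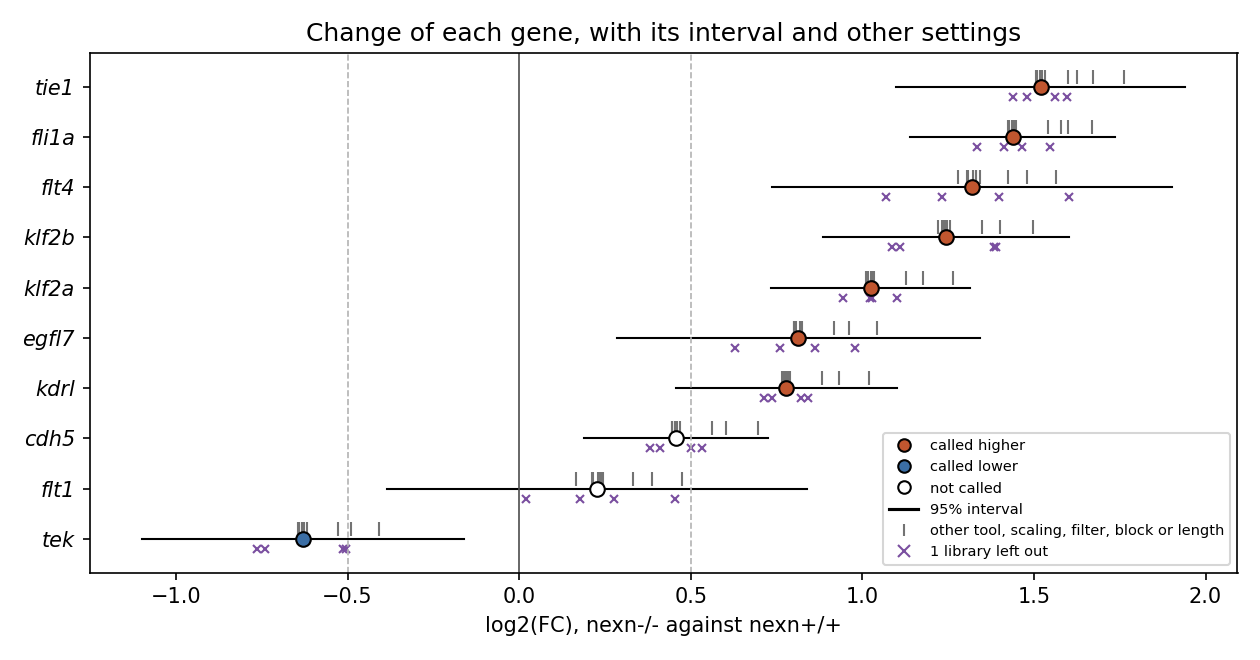
log2 fold change of each of the 10 genes, nexn-/- against nexn+/+ embryos, with 95% intervals from edgeR's quasi-likelihood fit as lines. Grey ticks are fits with another tool, scaling, filter, block or length offset, purple crosses are fits with 1 library left out, and dashed lines mark the fold limit. tie1 is drawn at 1.52 and fli1a at 1.44, an order that turns without nexn+/+ replicate 2 (1.44 and 1.55). tek is lowest at -0.63, and of the 10 intervals only that of flt1 includes 0.

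The flow-responsive genes klf2a and klf2b both rose. klf2a (ENSDARG00000042667) was measured at 14.96, 13.5, 28.8 and 28.96 CPM, and klf2b (ENSDARG00000040432), its duplicate, at 22.5, 18.7, 53.9 and 43.8 CPM. In both genes every nexn-/- library lay above every nexn+/+ library, and the klf2a values of the nexn-/- replicates were nearly identical. The difference was 2.03-fold for klf2a (log2(FC) 1.02, SE 0.122, 95% interval 0.73 to 1.31, adjusted p = 0.00185). It was 2.37-fold for klf2b (log2(FC) 1.24, SE 0.15, 95% interval 0.89 to 1.60, adjusted p = 0.00193). klf2b is also known in zebrafish from the epidermis. Of 12 markers of epidermis, 5 were called higher (41.7%, against 16.7% of all genes tested) and 0 lower (against 13.9%). Their median log2(FC) was 0.51, and no marker was at 0. Their summed levels in CPM were 27460 and 19463 for nexn+/+ libraries, 32081 and 32935 for nexn-/- libraries. The most abundant epidermis marker alone averaged 14495 CPM over all libraries. The part of the epidermis in the klf2b difference was not tested.

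The klf2 genes were also set against the vessel genes of the same library. klf2a counts per summed count of kdrl, cdh5, tie1, tek and egfl7 were 0.263 and 0.230 in nexn+/+ and 0.336 and 0.348 in nexn-/- libraries. klf2b counts per the same sum were 0.397 and 0.321 against 0.629 and 0.527. Both ratios were thus higher in both nexn-/- libraries, by 1.39-fold for klf2a and 1.61-fold for klf2b, and by 1.25-fold and 1.45-fold over kdrl, cdh5 and tie1 alone. The sum leaves out flt1, flt4 and fli1a, and cdh5 gave the most counts to it. klf2a (2.03-fold) and klf2b (2.37-fold) rose less than flt4 (2.50-fold), fli1a (2.71-fold) and tie1 (2.87-fold). They rose more than kdrl, egfl7, cdh5 and flt1, while tek fell. The direction of such a ratio therefore depends on the vessel genes chosen, and these ratios were given no test. The TPM ratio of klf2b to klf2a overlapped between the groups, from 0.680 to 0.787 in nexn+/+ and from 0.763 to 0.930 in nexn-/- libraries.

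Upstream and downstream genes of flow sensing were described from a list of 34 tested genes (median log2(FC) 0.55). Of these, 14 were called higher (41.2%, against 16.7% of all genes tested), 1 lower (2.94%, against 13.9%) and 19 were not called. The genes of mechanosensitive channels were among those called higher. piezo1 was measured at 3.46, 1.61, 11.8 and 12.9 CPM (log2(FC) 2.29, adjusted p = 0.00331), and pkd2, which encodes polycystin-2, at 2.10, 0.655, 7.27 and 6.39 CPM (log2(FC) 2.33, adjusted p = 0.00915). The nexn-/- libraries lay above both controls in each, and the nexn+/+ replicates differed widely. Leaving out nexn+/+ replicate 1 gave a log2(FC) of 2.93 for piezo1 and 3.37 for pkd2, and leaving out replicate 2 gave 1.83 and 1.69. pkd1a had a log2(FC) of 2.04 (adjusted p = 0.00332) and trpv4 had one of 1.23 (adjusted p = 0.021).

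Between the channels and klf2 lies a kinase cascade that is held back by the CCM complex in endothelium. map3k3, its first kinase, had 3.003, 3.38, 12.2 and 14.2 CPM (log2(FC) 2.04, adjusted p = 0.00129), and ccm2, a scaffold of the CCM complex, had a log2(FC) of 0.92 (adjusted p = 0.0203). krit1 and pdcd10a, further members of that complex named after their values were seen, had log2(FC) of 0.33 and -0.07 and were not called. map2k5, a further kinase gene of the list also named after its value was seen, had one of -0.15 and was not called. mef2d, a member of the family of transcription factors that activate klf2 downstream of the cascade, was called lower (log2(FC) -0.56, adjusted p = 0.00751), a call lost with 3 other scalings and with effective length offsets. hdac5, a repressor that acts on those factors, and klf17, a relative of klf2, were called higher at log2(FC) of 0.67 and 0.61, and both calls were lost with DESeq2 (adjusted p = 0.1078 and 0.1267).

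Of the genes of this list that act in the heart lining, fn1b, wnt9b and nfatc1 were called higher, while notch1b, a Notch receptor gene, and bmp4, a secreted signal gene, both named after their values were seen, were not (log2(FC) 0.22 and 0.50). fn1b, a fibronectin gene of the forming valve, was measured at 14.8, 12.5, 53.8 and 54.2 CPM (log2(FC) 1.99, adjusted p = 0.000685). wnt9b, a secreted signal of the endocardium downstream of klf2a, had a log2(FC) of 1.43 (adjusted p = 0.0106), and nfatc1, an endocardial transcription factor, one of 1.73 (adjusted p = 0.00782). ptgs2b, a prostaglandin synthase gene of the same list, had one of 1.26 (adjusted p = 0.0337), which was 0.77 when nexn+/+ replicate 1 was left out and 2.02 when nexn+/+ replicate 2 was. A list of 9 markers of endocardium and heart valve had a median log2(FC) of 1.73. It shares nfatc1, fn1b, notch1b and bmp4 with the flow list, so the lists are not separate. The tissues of the whole embryo in which these markers rose were not tested. Of these markers, 7 were called higher (77.8%, against 16.7% of all genes tested) and 0 lower (against 13.9%). Their summed level in CPM was 157 and 162 for nexn+/+ libraries, 420 and 390 for nexn-/- libraries. The most abundant of them alone averaged 159 CPM over all libraries. The largest rise was that of hapln1b, a matrix link protein gene of the valve (log2(FC) 2.61). klf2a is known in this tissue too, and the part of the endocardium in its difference was not tested.

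**Figure D4:**
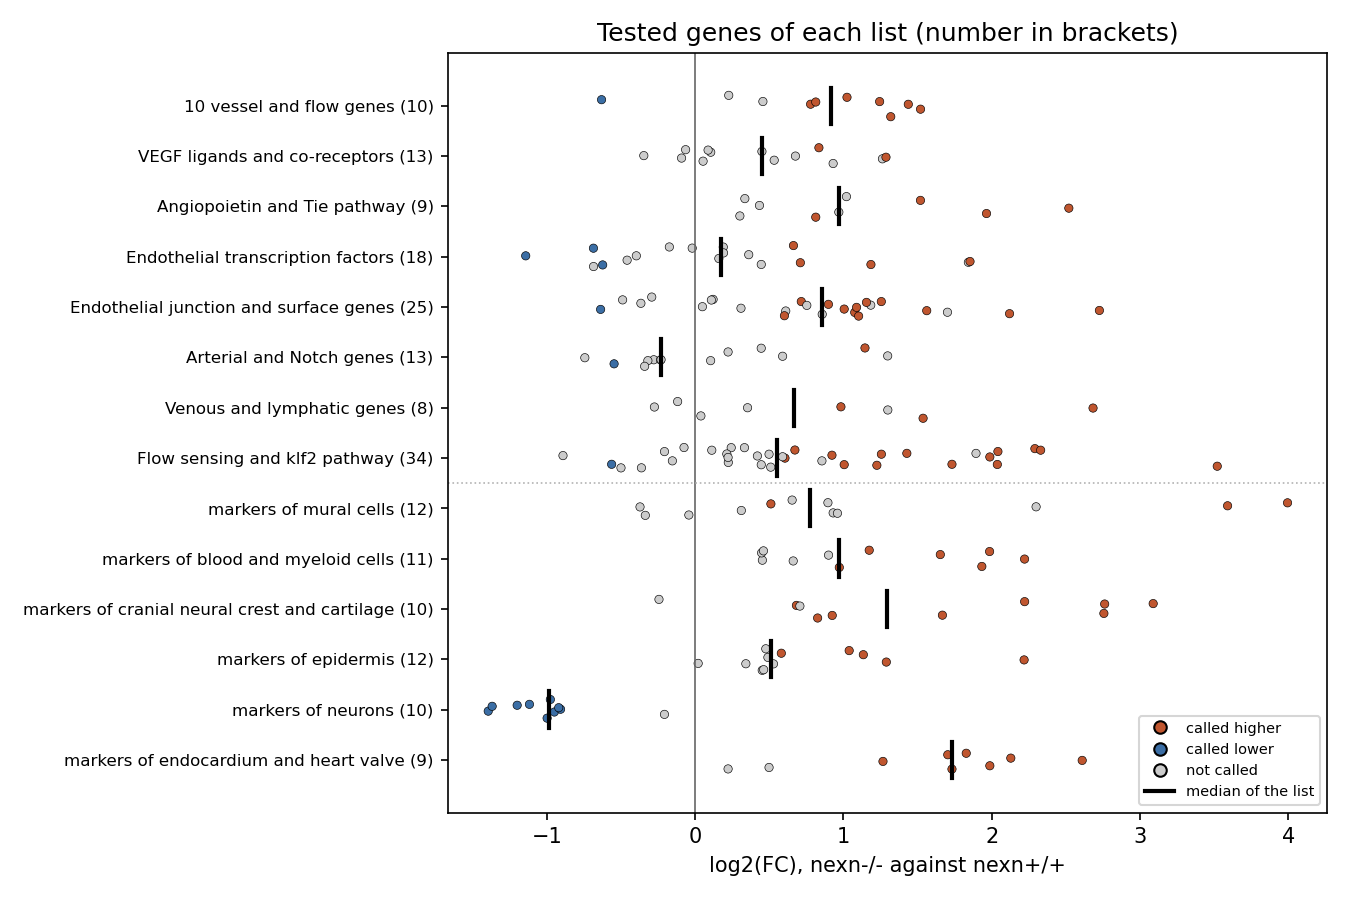
log2 fold change of every tested gene of the pathway and marker lists, nexn-/- against nexn+/+ embryos, with the median of each list as a black bar and called genes coloured. The list medians run from -0.99 for neuron markers to 1.73 for markers of endocardium and heart valve, and the 10 vessel and flow genes have a median of 0.92.

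Of 13 tested arterial and Notch genes, 1 was called higher (7.69%, against 16.7% of all genes), 1 lower (7.69%, against 13.9%) and 11 were not called (median log2(FC) -0.23). cxcl12b, a chemokine of arterial endothelium, had 26.7, 23.0, 56.8 and 53.1 CPM (log2(FC) 1.15, adjusted p = 0.00142), and notch1a, a Notch receptor abundant in neural tissue, had 58.7, 64.9, 45.5 and 39.2 CPM (log2(FC) -0.55, adjusted p = 0.0142). The notch1a call was lost with 3 other scalings, with effective length offsets and without nexn+/+ replicate 2, where its log2(FC) was -0.48. The list median was 0.0077 with scaling to rpl13, and between -0.11 and -0.06 as each of the 4 libraries was left out. The low-count filter was run anew each time a library was left out, so those medians need not cover the same 13 genes. Of 8 venous and lymphatic genes, 3 were called higher (37.5%, against 16.7% of all genes) and 0 lower (against 13.9%). Their median log2(FC) was 0.67. mrc1a, a receptor of venous and lymphatic endothelium, had the largest rise, from 7 and 9 counts in nexn+/+ to 64 and 61 counts in nexn-/- libraries (log2(FC) 2.68, adjusted p = 0.0029). Whether the venous and arterial lists differed was not tested. Over the 7 pathway lists together, 39 of 117 tested genes were called higher (33.3%, against 16.7%) and 6 lower (5.13%, against 13.9%). Their median log2(FC) was 0.45.

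The order of levels among the 10 genes was compared in TPM, which is scaled to transcript length. In nexn+/+ embryos klf2a stood first at 7.38 and 7.90 TPM, above klf2b at 5.81 and 5.37 TPM. fli1a, cdh5 and egfl7 followed between 3.84 and 6.43 TPM, and in this stretch, from klf2b to egfl7, neighbours overlapped between libraries. tek, kdrl and flt1 came next, each separate from its neighbours, and flt4 and tie1 were lowest, between 0.70 and 0.93 TPM, and overlapped.

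In nexn-/- embryos fli1a stood at 19.41 and 17.35 TPM and overlapped with klf2a at 17.76 and 17.23 TPM. klf2b, egfl7, cdh5 and kdrl followed in that order, each separate from the next. tie1 moved from rank 10 to rank 7 and tek from rank 6 to rank 8, where it overlapped with flt4. The summed TPM of the 10 genes was 33.3 and 37.7 in nexn+/+ and 81.5 and 76.1 in nexn-/- libraries, 2.22-fold higher. TPM carries no TMM factor and weights genes by transcript length. The difference was smaller in CPM, which carries that factor and is not scaled to length, with sums of 115 and 111 in nexn+/+ and 219 and 206 in nexn-/- libraries. The parts of the factor and of length were not separated. The effective length of fli1a was 2711 and 2562 bases in nexn+/+ and 2286 and 2406 bases in nexn-/- libraries, and its log2(FC) was 1.60 with an offset for these lengths. The counts of all 10 genes were whole numbers in all 4 deposited tables, which give 2 decimals.

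Genes of low level tended towards positive log2(FC) over the whole table. The median log2(FC) fell from 0.49 in the lowest decile of genes by mean CPM to -0.27 in the highest decile. Relative to genes of their own level, the log2(FC) of the 10 genes had a median of 0.91. It ranged from -0.75 for tek and -0.07 for flt1 to 1.40 for tie1 and 1.49 for fli1a, and it was 1.08 for klf2a and 1.39 for klf2b. cdh5, among genes with negative medians, stood at 0.60 on this scale. The list medians on this scale were 0.16 for VEGF ligands and co-receptors, 0.61 for the Tie pathway and -0.09 for endothelial transcription factors. They were 0.69 for junction and surface genes, -0.07 for arterial and Notch genes, 0.61 for venous and lymphatic genes and 0.50 for flow sensing.

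**Figure D5:**
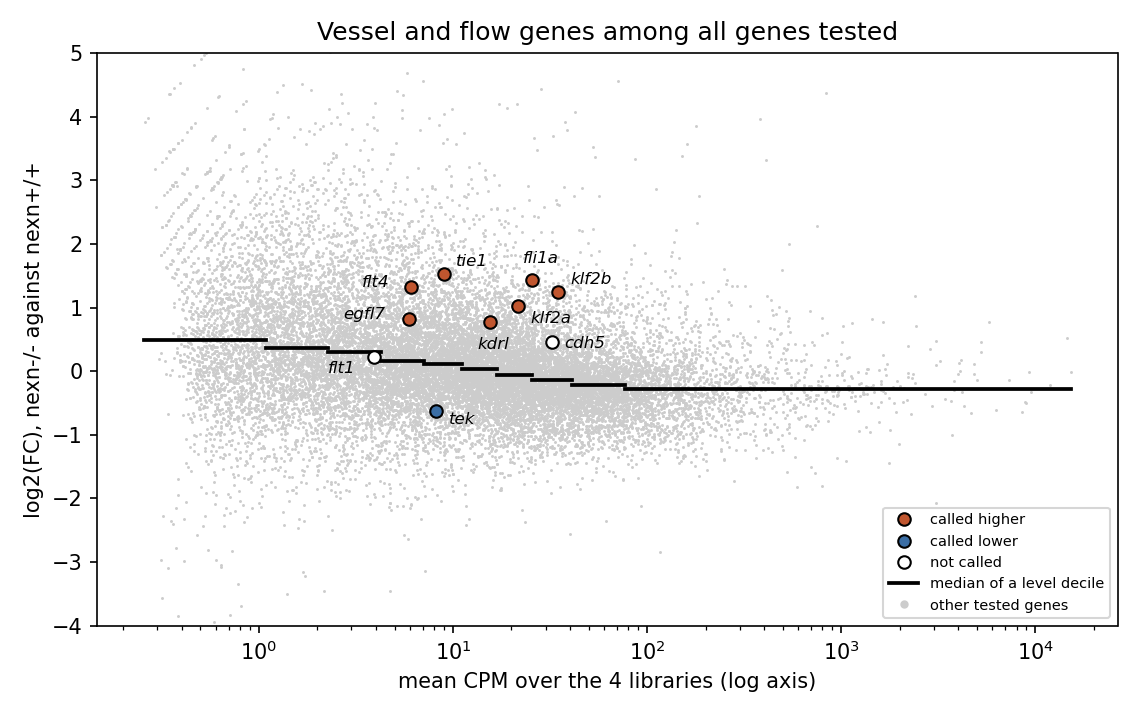
log2 fold change against mean normalised read count (CPM, log axis) of all genes tested, with the median of each decile of genes by level and the 10 vessel and flow genes labelled. The medians fall from 0.49 to -0.27 with rising level, and 8 of the 10 genes lie above the median of their decile. The plot leaves out 43 genes beyond its range.

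Markers of other cells moved in the same comparison, in which 16.7% of all genes tested were called higher and 13.9% lower. Of 13 vessel endothelium markers, 8 of them among the 10 genes, 8 were called higher and 1 lower (median log2(FC) 0.81), and all 13 were above 0 in every library. The higher calls include kdrl, flt4, tie1, fli1a and egfl7, and the lower call is tek, so this count is not separate from that of the 10 genes. Of 11 tested blood and myeloid markers, 6 were called higher and 0 lower, with summed levels in CPM of 46.9 and 37.5 for nexn+/+ libraries, 89.5 and 97.6 for nexn-/- libraries. mpx, a neutrophil gene, rose most among the blood markers above 1 CPM on average (log2(FC) 1.99), and itga2b, a thrombocyte marker, was at 0 counts in 1 library of each genotype. Of 12 markers of mural cells, which wrap vessels, 3 were called higher and 0 lower, with summed levels of 359 and 265 against 421 and 435 CPM. cspg4 led these (log2(FC) 3.99). The mural median, 0.78, became 1.40 when nexn+/+ replicate 1 was left out and 0.46 when nexn+/+ replicate 2 was.

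Of 10 neuron markers, 0 were called higher (against 16.7% of all genes tested) and 9 lower (90.0%, against 13.9%). Their median log2(FC) was -0.99, with summed levels in CPM of 3637 and 3488 for nexn+/+ libraries, 1725 and 1716 for nexn-/- libraries. snap25b, a gene of synaptic vesicle release, fell most among them (log2(FC) -1.39). The part of shifts between tissues in the differences of the 10 genes was not tested. Genes that lie next to the vessel genes in the gene order of the GRCz12tu assembly were looked up for the 9 genes found there. Of 11 neighbours tested, 1 was called higher (ap3b1a beside egfl7, log2(FC) 1.63) and 1 lower (bean1 beside cdh5, log2(FC) -1.15). Among all genes tested, 16.7% were called higher and 13.9% lower.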

How the data were processed

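Genotype and replicate number were taken from the labels, which call the replicates biological. With pooled embryos, p-values measure only the spread between these libraries. The submitters' processing notes name STAR, RSEM and GRCz11, and versions are not given in the sources used here. The authors deposited estimated counts per gene, not normalized, together with TPM and FPKM values scaled to library total and transcript length. Between 92.0% and 93.2% of the count values above 0 were whole numbers. The headings of all 4 deposited tables carry the same library name, so each table's library was taken from its deposition record.

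Counts were rounded, filtered with filterByExpr (20312 genes kept), scaled by TMM and tested in edgeR 4.0.16 (R 4.3.3) by its quasi-likelihood test on genotype alone, with p-values adjusted by Benjamini-Hochberg. A gene was called at an adjusted p under 0.05 and a log2(FC) beyond 0.5. The TMM factors were 0.88 and 1.02 in nexn+/+ and 1.07 and 1.04 in nexn-/- libraries, and the common biological coefficient of variation was 0.146. The reference gene rpl13 was not called. CPM values are counts scaled to library size and TMM factor, and errors are standard errors of log2(FC). Intervals cover the spread between libraries. With 19413597 to 21956272 counts per library, genes near 1 CPM rest on about 20 counts.

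The 10 genes and all lists were chosen with earlier results of these data known. Genes were named by rule: the 10 genes, nexn, rpl13, the called gene with the largest rise and fall of each list at a mean of at least 1 CPM, and every such called gene of the VEGF, Tie and flow lists. Alternatives were DESeq2 1.42.0, limma-voom (limma 3.58.1), other scalings, filters and fold limits, a replicate block, effective length offsets computed from deposited counts and TPM, FPKM in place of TPM, and leaving out each library. The gene order came from the RefSeq annotation of GRCz12tu, for names and neighbours only. Sequences were not analysed here.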

Additional observations from a re-analysis of the deposited data

How the results depend on the processing

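The log2(FC) of the 10 genes kept its sign in every alternative run, and 0 of 624 values of named genes changed sign. The runs with another fold limit reuse the log2(FC) of the main fit, so those values could not change sign. Most of these genes were named because they were called in the main fit, so kept signs were largely built in. Members of the 10 called lower numbered 0 rather than 1 with DESeq2, library size alone, the upper quartile, rpl13, effective length offsets and a log2(FC) limit of 1. At an unadjusted p under 0.05, 1 was lower with DESeq2, the upper quartile and effective length offsets, and 0 with library size alone and rpl13. With a limit of 1, 2218 genes of the whole table were called higher and 922 lower. Lower calls numbered 1878 with library size alone and 1466 with rpl13. Over the 7 pathway lists, 2 genes were lower with library size alone, 1 with rpl13, 1 with a limit of 1 and 12 with no limit, and the arterial and Notch median turned from -0.23 to 0.0077 with rpl13. Of all calls, 54.5% were higher under TMM and 77.6% under rpl13 scaling, and 70.2% and 64.9% under library size and upper quartile scaling, which moved the median of all genes by 0.234, 0.147 and 0.103 in that order. As each library was left out, higher calls ranged from 0 to 7 and lower calls from 0 to 1 among the 10 genes, from 4 to 4928 and from 0 to 3632 over the whole table, and from 0 to 57 and from 0 to 10 over the lists. The lowest counts arose without either nexn-/- library, when 5615 and 5776 genes had an unadjusted p under 0.05, and the 10 lower list genes without nexn+/+ replicate 1. The lone library left was assumed to vary like the other group. The cause of these changes was not tested.

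The replicate numbers did not pair the libraries (correlation of same-numbered deviations -0.019). With the replicate number as a block, 7 of the 10 genes were higher and 1 lower, with 3417 higher and 2741 lower over the whole table and 39 and 7 over the lists. The block ended the calls of adamts14 (adjusted p = 0.0589), angpt2b (0.0625), hdac5 (0.0601) and klf17 (0.0732) in edgeR.

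flt1, flt4, tie1, tek and egfl7 rest on 57 to 304 counts per library.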

Other observations

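klf4, a relative of klf2a and klf2b that also responds to flow in mammals, was near the detection limit. It had 2 and 2 counts in nexn+/+ replicates 1 and 2 and 37 and 21 counts in nexn-/- replicates 1 and 2. Over the genotypes this was 4 against 58 counts, a depth-corrected ratio of 12.0 with a counting interval of 4.46 to 45.7, which covers counting error only. angpt1 relative to tek in TPM was 0.138 and 0.209 in nexn+/+ and 1.02 and 1.11 in nexn-/- libraries, so the ligand stood above its receptor's level only in the latter. flt1 relative to vegfaa overlapped between genotypes, from 0.265 to 0.423 in nexn+/+ and from 0.341 to 0.368 in nexn-/- libraries. klf4 was among the 34 tested genes of the flow sensing list, and its fitted log2(FC) is not given here. All values of this paragraph were picked after they were seen, and the ratios were given no test.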
